A study of Mus musculus with 12 samples.

Results

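The rod cGMP phosphodiesterase, PDE6, and the proteins that carry its lipid-modified subunits were followed through RNA from rods and from whole mouse retina. The 8 genes were chosen by symbol from the 56748 genes of the table, and each symbol matched 1 row: the PDE6 subunit genes Pde6a, Pde6b and Pde6g, the lipid-binding carriers Pde6d and Unc119, the PDE6 chaperone Aipl1, and the small GTPases Arl2 and Arl3. All 8 passed the filter on low values in every comparison.

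PDE6 ends the dark current of rods. In light, the G protein transducin relieves the catalytic α and β subunits (Pde6a, Pde6b) of their inhibitory γ subunit (Pde6g), cGMP is hydrolysed, and cGMP-gated channels close. The catalytic subunits are prenylated and transducin's α subunit is acylated, so both need soluble carriers to reach the outer segment. PDE6D binds prenyl groups, UNC119 binds acyl groups, and the GTP-bound form of ARL3 makes the carriers let go of their cargo. AIPL1 works with HSP90 in the folding and assembly of PDE6.

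Rod-TRAP, which pulls down HA-tagged ribosomes with their mRNA from rods (called rods here), and the total lysate before pull-down (called retina here) were sequenced from 2 genotypes, with 3 libraries in each of 4 groups. All mice were RiboTag homozygotes and carried the rhodopsin-Cre transgene i75, which is active in rods. Control mice (RiboTag;Pkm2fl/+;i75-Rod-Cre) had 1 floxed Pkm2 allele, so that their rods were heterozygous and not wild type, and Pkm2_Rodko littermates (RiboTag;Pkm2fl/fl;i75-Rod-Cre) had both alleles floxed. The deposited description gives an age of 2 weeks and the methods give 2 months. Tissue was taken after cycloheximide perfusion. No source says whether the libraries of a group came from separate animals, so the p-values measure the spread between these libraries, which may be technical. A bulk library cannot tell fewer cells of a type from less RNA per cell, and rods and retina also differ in that only the former were selected for ribosomes.

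Libraries held between 13458890 and 22790074 reads. Pkm, the gene whose M2 exon is floxed, was lower in both Pkm2_Rodko fractions, with log2 fold changes of -1.20 (rods) and -0.65 (retina). The table does not separate Pkm1 from Pkm2. The 10 rod markers summed to between 3456190 and 3682190 TMM-scaled reads in control rods and to between 799579 and 951540 in control retina. The 8 Müller glia markers summed to between 70075 and 77386 in control retina and to between 8959 and 11653 in control rods, and no marker of 10 cell types was at 0 in any group.

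Promoter sequences of Pde6b, Aipl1, Arl3 and Arl2 are shown as background. CRX and NRL are the transcription factors best known for switching on rod genes. A link between their motifs and the levels described next was not tested. The windows of Pde6d and Unc119 were searched but are not printed. The RefSeq (GRCm38.p6) promoters used here covered 6 of the 8 members, with 8 start sites. Promoters of Pde6a and Pde6g were not among them and were not searched. Each was searched over the 250 bases before the start, on both strands, for a CRX-type motif (TAATCC, reverse complement GGATTA) and an NRL-type motif (TGCTGA, reverse complement TCAGCA), which do not overlap each other in these windows. Of 32851 promoters, 6.25% hold the first, 16.1% the second and 0.962% both. The window of Aipl1 held both. Pde6b held the NRL-type motif, and of 3 Unc119 starts 1 held neither, 1 only the CRX-type motif and 1 only the NRL-type motif. Pde6d, Arl2 and Arl3 held neither. Capitals mark a motif match. The sequences run 5′ to 3′ on the strand of the gene, with Pde6b at chr5:108388123-108388372 (+), Aipl1 at chr11:72037510-72037759 (-), Arl3 at chr19:46573183-46573432 (-) and Arl2 at chr19:6141138-6141387 (-).
Pde6b: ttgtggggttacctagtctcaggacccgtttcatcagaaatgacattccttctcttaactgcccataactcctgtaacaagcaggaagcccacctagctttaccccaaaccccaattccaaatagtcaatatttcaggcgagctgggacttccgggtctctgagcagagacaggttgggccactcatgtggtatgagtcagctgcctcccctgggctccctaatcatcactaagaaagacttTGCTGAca
Aipl1: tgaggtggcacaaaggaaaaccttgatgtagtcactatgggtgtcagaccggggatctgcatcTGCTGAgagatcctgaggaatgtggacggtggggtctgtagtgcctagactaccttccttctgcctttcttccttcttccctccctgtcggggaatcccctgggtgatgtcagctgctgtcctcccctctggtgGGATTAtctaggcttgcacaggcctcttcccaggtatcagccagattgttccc
Arl3: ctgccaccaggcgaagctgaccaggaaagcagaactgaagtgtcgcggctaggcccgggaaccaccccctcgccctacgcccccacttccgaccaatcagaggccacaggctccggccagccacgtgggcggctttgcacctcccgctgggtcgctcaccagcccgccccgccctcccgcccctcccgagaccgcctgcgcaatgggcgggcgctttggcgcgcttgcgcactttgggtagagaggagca
Arl2: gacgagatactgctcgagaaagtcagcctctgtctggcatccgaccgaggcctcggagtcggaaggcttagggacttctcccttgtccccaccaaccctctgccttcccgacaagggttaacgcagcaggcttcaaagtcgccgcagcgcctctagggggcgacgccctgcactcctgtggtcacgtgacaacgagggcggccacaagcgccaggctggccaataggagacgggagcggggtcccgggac
A match describes these letters and is not evidence of binding, and a window without one says nothing about the factors.

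The 3 subunit genes of rod PDE6 together took 1.78% ± 0.063 of all reads in control rods (SD, n = 3), 1.79% ± 0.088 in Pkm2_Rodko rods, 0.700% ± 0.062 in control retina and 0.718% ± 0.032 in Pkm2_Rodko retina. The libraries of rods ran from 1.69% to 1.85% and those of retina from 0.656% to 0.771%, so no rod library reached down to the retina libraries. A share of all reads amounts to scaling each library by its total reads, and another scaling gives another gap. In controls Pde6a was 2.52-fold higher in rods by total reads and 3.69-fold higher by the TMM scaling used below.

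Levels are given below as TMM-scaled reads, which are the reads of a gene divided by a size set from all 12 libraries, so that rods and retina share a scale. Pde6a, the α subunit, had 133183, 138168 and 136371 TMM-scaled reads in control rods and 128176, 123646 and 158587 in Pkm2_Rodko rods. In retina it had 34687, 42346 and 34123 in controls and 38582, 32744 and 39374 in Pkm2_Rodko mice. The rod libraries all lay above the retina libraries, and the genotypes overlapped in both fractions. Reads from the opposite strand of this locus could be counted where strand was not used, and the overlapping Rps2-ps10 had 211 to 420 reads per library.

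Pde6b, the β subunit, had 100049, 112187 and 108259 TMM-scaled reads in control rods and 107201, 102750 and 122726 in Pkm2_Rodko rods. Control retina had 26483, 33252 and 25688, and Pkm2_Rodko retina had 30544, 27579 and 31432. Again the fractions were apart and the genotypes overlapped. Pde6g, the inhibitory γ subunit, had 144549, 131857 and 162306 in control rods and 172194, 146792 and 130695 in Pkm2_Rodko rods. It had 39492, 40222 and 36507 in control retina and 43726, 39327 and 35112 in Pkm2_Rodko retina. The highest and lowest Pkm2_Rodko rod libraries enclosed the whole control range.

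Among the carriers, Pde6d had 3555, 3829 and 3921 TMM-scaled reads in control rods and 4153, 3842 and 3432 in Pkm2_Rodko rods. In retina it had 1589, 1620 and 1528 in controls and 1741, 1490 and 1547 in Pkm2_Rodko mice. Unc119 had 83110, 79869 and 89242 in control rods, 92643, 88255 and 73875 in Pkm2_Rodko rods, 23029, 25749 and 23347 in control retina and 26672, 25717 and 23952 in Pkm2_Rodko retina. Both carriers were higher in every rod library than in any retina library. Aipl1, the chaperone, had 36701, 30539 and 39534 in control rods, 36166, 33781 and 32511 in Pkm2_Rodko rods, 8778, 9100 and 9391 in control retina and 9784, 9034 and 9528 in Pkm2_Rodko retina.

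The 2 GTPases went apart. Arl3 had 7378, 7596 and 8357 TMM-scaled reads in control rods, 8665, 8041 and 6918 in Pkm2_Rodko rods, 3397, 3328 and 3197 in control retina and 3389, 3004 and 3423 in Pkm2_Rodko retina. Arl2, its relative that also binds PDE6D and works in tubulin folding, was the only member lower in rods than in retina. It had 483, 346 and 510 in control rods, 579, 448 and 394 in Pkm2_Rodko rods, 685, 555 and 744 in control retina and 692, 649 and 627 in Pkm2_Rodko retina. Within a genotype the rod and retina libraries of Arl2 did not overlap, while across genotypes the highest rod library, at 579, lay above the lowest retina library, at 555.

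**Figure D1:**
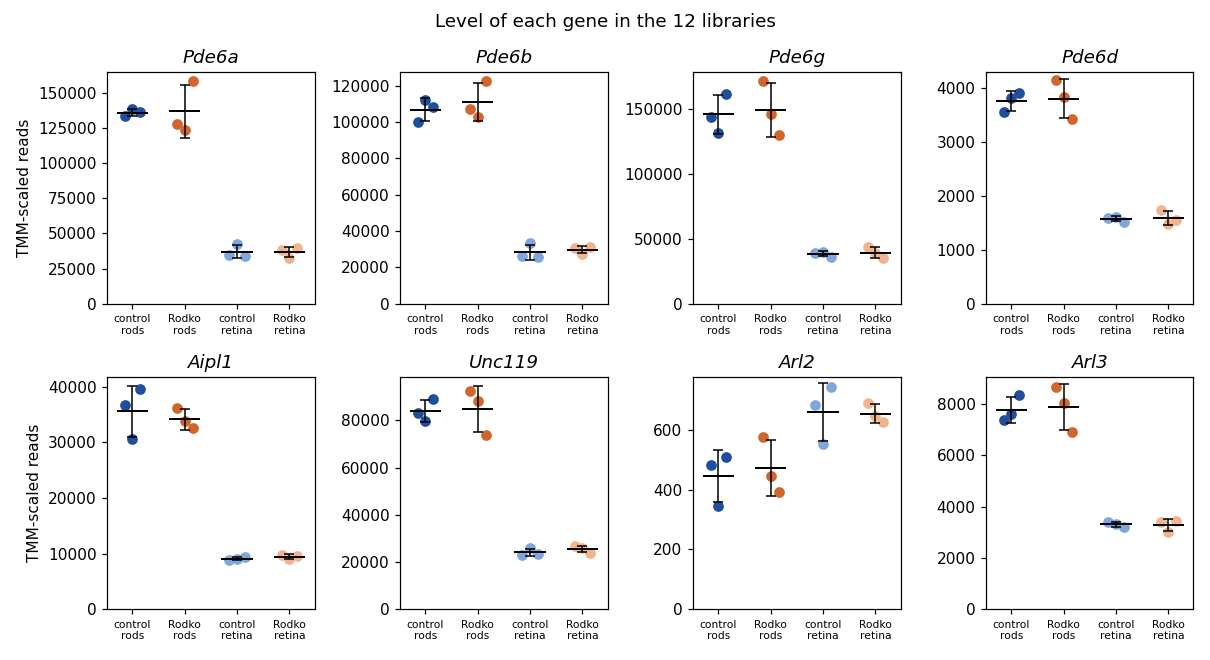
TMM-scaled reads (axis from 0) of each gene in the 12 libraries, with points for libraries, a bar for the group mean and an error bar for the SD (n = 3). In 7 genes the rod libraries lie above the retina libraries, and in Arl2 they lie lower within each genotype.

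To compare genes with one another, reads were divided by the exon length of the gene in kilobases and by the total reads of the library (RPKM). In control rods the order by RPKM was Pde6g at 2893 ± 245 (SD, n = 3), Unc119 at 1575 ± 61.3, Pde6a at 1331 ± 52.6, Pde6b at 976 ± 74.8, Aipl1 at 516 ± 55.4, Arl3 at 143 ± 8.55, Pde6d at 79.4 ± 4.71 and Arl2 at 5.91 ± 1.04. The order of means was the same in the other 3 groups. Neighbours in the order did not overlap in control rods, control retina or Pkm2_Rodko retina. In Pkm2_Rodko rods Unc119, with a lowest library of 1353, overlapped Pde6a, with a highest of 1517. The length is that of all annotated exons of GENCODE vM21 joined, which can exceed the transcript a rod makes and would then understate a level.

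**Figure D2:**
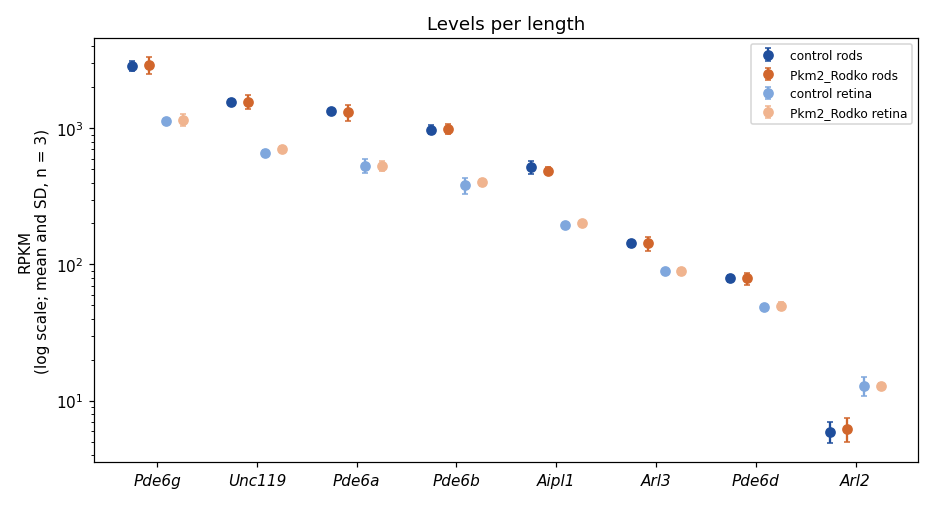
Mean RPKM (log scale) of each gene in the 4 groups, with the SD (n = 3). In control rods the levels run from 2893 for Pde6g to 5.91 for Arl2, and the order of means is the same in each group.

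The comparison of rods with retina asks how far each transcript belongs to rods. All 8 members passed the adjusted threshold of 0.05 (limma with a variance trend, Benjamini-Hochberg adjustment) in control mice, 7 higher in rods and Arl2 lower. Across the 25584 genes tested, 23.5% were called higher and 35.5% lower, and the median log2 fold change of all genes was -0.37. The log2 fold changes, rods over retina, were 1.96 for Aipl1 (95% interval 1.77 to 2.15), 1.92 for Pde6b (1.69 to 2.15), 1.91 for Pde6g (1.66 to 2.16), 1.88 for Pde6a (1.64 to 2.13) and 1.81 for Unc119 (1.60 to 2.01). The same measure was smaller for Pde6d, at 1.25 (1.07 to 1.43), and Arl3, at 1.23 (1.05 to 1.42). The 10 rod markers ran from 0.92 to 2.11 in controls, with a median of 1.98, so these 2 values lie within the range of rod markers. As fold changes, Aipl1 was 3.89-fold higher and Pde6d 2.38-fold higher. The intervals of Pde6d and Arl3 lay outside those of the 5 others, although this difference between genes was not tested.

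Arl2 gave a log2 fold change of -0.58 (95% interval -0.91 to -0.24, adjusted p = 0.0056 by limma) in controls and -0.49 (-0.82 to -0.15, adjusted p = 0.016) in Pkm2_Rodko mice. Relative to the median of all genes, these values were -0.21 and -0.17. Without 1 library the Pkm2_Rodko call was lost in 3 cases, with adjusted p = 0.056 without Pkm2_Rodko retina replicate 1, 0.056 without Pkm2_Rodko rods replicate 2 and 0.089 without Pkm2_Rodko rods replicate 3.

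In Pkm2_Rodko mice the 7 other members were again higher in rods, where 23.9% of 25584 genes were called higher and 35.1% lower. Their log2 fold changes were 1.92 for Pde6g, 1.89 for Pde6a, 1.89 for Pde6b, 1.85 for Aipl1, 1.73 for Unc119, 1.26 for Arl3 and 1.26 for Pde6d. Scaling by total reads lowered these values without changing any direction. In controls it gave 1.41 for Aipl1, 1.37 for Pde6b, 0.70 for Pde6d, 0.68 for Arl3 and -1.12 for Arl2. The split of all called genes moved with the scaling, from 6001 higher and 9083 lower to 2184 and 12706 in controls, and from 6108 and 8992 to 2198 and 12648 in Pkm2_Rodko mice.

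**Figure D3:**
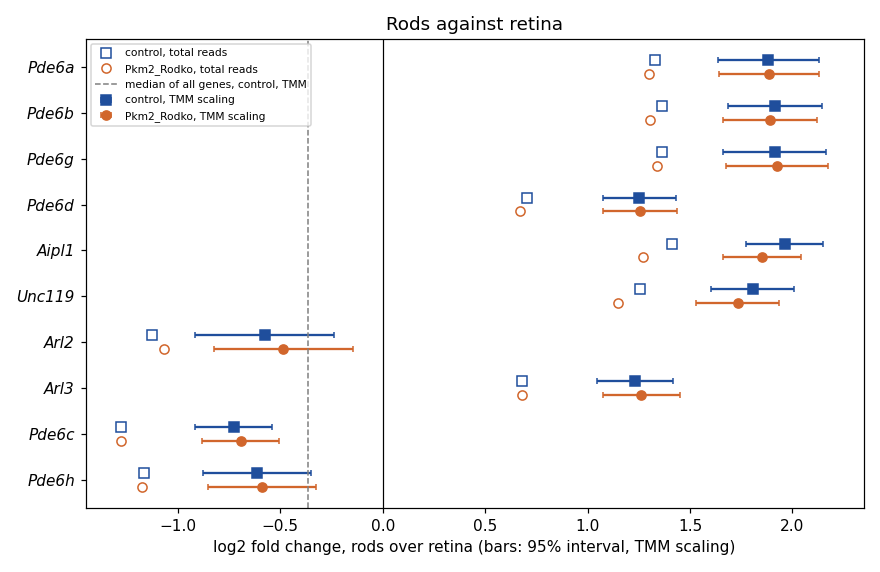
Log2 fold change of rods over retina for the 8 members and the cone genes Pde6c and Pde6h, with the 95% interval, in control (squares) and Pkm2_Rodko mice (circles). Open symbols show scaling by total reads, the dashed line is the median of all genes in controls, and Arl2, Pde6c and Pde6h lie left of 0.

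The cone counterparts Pde6c (catalytic) and Pde6h (inhibitory) gave the opposite direction from the rod subunits. Pde6c had a log2 fold change, rods over retina, of -0.73 in controls and -0.69 in Pkm2_Rodko mice, and Pde6h of -0.61 and -0.59. These 4 values passed the adjusted threshold of limma. Relative to the median of all genes, they were -0.36 and -0.37 for Pde6c and -0.25 and -0.27 for Pde6h. The summed cone markers ran from 6851 to 8672 TMM-scaled reads in control rods and from 12192 to 12509 in control retina.

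Ratios of reads (not per length) within a library do not depend on the scaling between libraries. Arl3 had 15.3, 21.9 and 16.4 reads per Arl2 read in control rods and 4.959, 5.995 and 4.297 in control retina, a ratio 3.50-fold higher in rods. In Pkm2_Rodko mice it was 3.36-fold higher. The ratio of Unc119 to its broadly expressed paralog Unc119b was 82.2 in control rods and 31.0 in control retina, 2.65-fold higher in rods, and 2.41-fold higher in Pkm2_Rodko mice. In these 4 cases the libraries of rods and retina did not overlap, which in a two-sided exact permutation test of 3 against 3 gives the smallest p allowed, 0.1, and an adjusted p of 0.32 over 16 ratios compared. This unpaired test cannot reach 0.05 for a single ratio. With the bead and input libraries of the same genotype and number taken as pairs, a test chosen after seeing the data, both ratios were higher in rods in 6 of 6 pairs, by 1.78 ± 0.16 (SD) on the log2 scale for Arl3 over Arl2 and by 1.34 ± 0.16 for Unc119 over Unc119b. An exact two-sided sign-flip test of the 6 pairs gave p = 0.031 for each, the smallest it allows, and an adjusted p of 0.0625 over the 4 ratios tested this way.

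The ratios between subunits of rod PDE6 were close in rods and retina. Pde6a to Pde6b was 1.273 in control rods and 1.304 in control retina, and 1.23 in both fractions of Pkm2_Rodko mice. Pde6g to Pde6b was 1.37 in both control fractions, and 1.35 and 1.32 in Pkm2_Rodko rods and retina. Pde6a to Pde6b in retina was 0.946 times the control value in Pkm2_Rodko mice, with no overlap of libraries (exact p = 0.1, adjusted p = 0.32), while in rods the genotypes overlapped.

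Outside the members, 30 other genes of the pathway were counted, namely 8 enzymes that add or process the lipid, 7 regulators and partners of ARL2 and ARL3, 9 lipidated cargo genes, 4 paralogs and co-chaperones and the 2 cone PDE6 genes. In controls 18 were higher in rods and 8 lower by the adjusted threshold of limma, and in Pkm2_Rodko mice 20 and 8, with medians of 0.46 and 0.45 against -0.37 and -0.32 for all genes tested. Scaled by total reads, the counts were 13 higher and 12 lower in controls and 13 and 10 in Pkm2_Rodko mice. The excess of higher over lower calls thus depended on the scaling. Of the 25895 genes tested with that scaling, 2184 were higher and 12706 lower in controls, and 2198 and 12648 in Pkm2_Rodko mice. By either scaling the 30 genes held a larger share of higher calls than all genes tested. The sign of 7 of the 30 in controls and 8 in Pkm2_Rodko mice changed over 4 scalings.

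Among the 8 enzymes, 6 were higher and 1 lower in control rods by TMM, and 6 and 2 by total reads. Rce1, which cleaves the tail of prenylated proteins, had a log2 fold change of 1.57 (controls) and 1.46 (Pkm2_Rodko), and Icmt, which methylates that tail, 1.27 and 1.22. At the other end Nmt2, an N-myristoyltransferase, had -0.67 and -0.68. Zmpste24, a CAAX protease, had 0.20 and 0.37, and only the second passed. Under total reads the signs turned, with -0.35 in controls called lower (adjusted p = 0.014, limma) and -0.21 in Pkm2_Rodko mice not called (adjusted p = 0.117).

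Among the 7 regulators and partners of ARL2 and ARL3, 3 were higher and 1 lower in control rods by TMM, but 1 higher and 4 lower by total reads. Arl13b, the exchange factor for ARL3, had 1.21 and 1.17. Cep164, a centriole appendage protein, had 0.59 and 0.44 by TMM, both called, but 0.04 and -0.14 under total reads. Arl2bp, which binds ARL2, had -0.36 and -0.32. Tbce, a tubulin cofactor, had -0.26 and -0.02, neither called, but -0.81 and -0.60 under total reads, both called lower (adjusted p = 3.95e-05 and 0.000644, limma).

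Among 9 lipidated cargo genes, 6 were higher and 3 lower in both genotypes by TMM, and 4 and 3 by total reads. Gnat1, rod transducin α, had 2.10 and 2.07, and Gngt1, rod transducin γ, 1.73 and 1.98. Cys1, a myristoylated ciliary protein, had -2.60 and -2.85. Of 4 paralogs and co-chaperones, 3 were higher and 1 lower in both genotypes by TMM, and 2 and 1 by total reads. Hsp90aa1, an HSP90 chaperone, had 1.52 and 1.72. Unc119b had 0.40 and 0.47 by TMM but -0.15 and -0.12 under total reads, and Hsp90ab1 had -0.46 and -0.23.

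The genotype comparison asks whether loss of Pkm2 in rods alters these transcripts. No member passed in rods, where 0.0194% of 20658 genes were called, or in retina, where 0.00391% of 25590 were called. The 4 genes called in rods, named after their values were seen, were Pkm, Adpgk, Gm6560 and Gm6992, all lower in Pkm2_Rodko rods, and the 1 called in retina was Pkm. The paper lists Gm6560 and Gm6992 as pyruvate kinase pseudogenes, and whether their calls are separate from that of Pkm was not tested. In rods 986 of the 20658 genes and in retina 1069 of the 25590 had an unadjusted p under 0.05 by limma. Both are under the share of 0.05 that arises without any effect. edgeR and DESeq2 also called 0 of the 8 members in either fraction.

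In rods the log2 fold changes of members, Pkm2_Rodko over control, lay between -0.04 (Aipl1) and 0.10 (Arl2), with adjusted p between 0.96 and 0.99 by limma. As a fold with its 95% interval, Pde6a was at 1.01 (0.850 to 1.19), Pde6b at 1.04 (0.892 to 1.22), Pde6g at 1.03 (0.857 to 1.23), Pde6d at 1.01 (0.887 to 1.16), Aipl1 at 0.970 (0.833 to 1.13), Unc119 at 1.01 (0.865 to 1.18), Arl3 at 1.02 (0.882 to 1.17) and Arl2 at 1.07 (0.830 to 1.38). Changes larger than these bounds lie outside the intervals, and smaller ones cannot be told from none with 3 libraries. No member's genotypes were apart in rods or retina, where 9.89% of the genes tested in rods and 9.29% of those in retina had libraries that did not overlap.

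In retina the log2 fold changes lay between -0.00099 (Arl3) and 0.10 (Unc119). As a fold, Unc119 was at 1.07 (95% interval 0.951 to 1.21), Pde6b at 1.07 (0.912 to 1.25), Aipl1 at 1.05 (0.946 to 1.17) and Pde6g at 1.03 (0.895 to 1.17). Pde6d was at 1.02 (0.905 to 1.15), Pde6a at 1.01 (0.861 to 1.18), Arl2 at 1.01 (0.860 to 1.19) and Arl3 at 0.999 (0.893 to 1.12), and adjusted p ran from 0.947 to 0.999 by limma. The genotype effect in rods was then set against that in retina. Of 25584 genes 0% were called by limma, 0 by edgeR and 1 by DESeq2. By limma 1128 had an unadjusted p under 0.05, again under the share of 0.05 that arises without any effect. The members differed between fractions by between -0.11 (Aipl1, 95% interval -0.38 to 0.16) and 0.09 (Arl2, -0.39 to 0.57) on the log2 scale.

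The summed markers of every cell type except rods had lower means in Pkm2_Rodko libraries than in controls, in both fractions. Those of rods had higher means. For amacrine cells and Müller glia the ranges overlapped in 2 of 4 cases. The 8 amacrine markers summed to between 1999 and 2861 TMM-scaled reads in control rods and to between 1696 and 1947 in Pkm2_Rodko rods, while in retina the ranges overlapped (14380 to 15214 in controls and 13301 to 14646 in Pkm2_Rodko mice). The 8 Müller glia markers in retina summed to between 70075 and 77386 in controls and to between 63078 and 68446 in Pkm2_Rodko mice, while in rods the ranges overlapped (8959 to 11653 and 7712 to 9185). The ranges of the 4 summed endothelial markers were apart in rods (197 to 272 in controls and 134 to 183 in Pkm2_Rodko mice). Taken singly, 2 of these markers were higher and 2 lower in Pkm2_Rodko rods, with a median log2 fold change of -0.026. The summed ranges were also apart in retina (1365 to 1491 and 1235 to 1358), where all 4 markers were lower. Cone marker ranges were apart in retina (12192 to 12509 and 11283 to 11589) but not in rods. The ranges of the remaining lists overlapped in both fractions. A sum follows its most abundant markers, and single markers did not all share its direction. The 6 pigment epithelium markers in retina were 3 higher and 3 lower, with a median log2 fold change of 0.24. The 4 horizontal cell markers in rods were 2 higher and 2 lower, while all 8 Müller glia markers were lower in both fractions. Of all genes tested singly, 9.89% in rods and 9.29% in retina had genotypes that did not overlap. No amacrine, Müller glia, endothelial or cone marker was called by genotype. Among these the lowest adjusted p by limma was 0.93 in rods and 0.95 in retina. Their part in the member values was not tested.

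**Figure D4:**
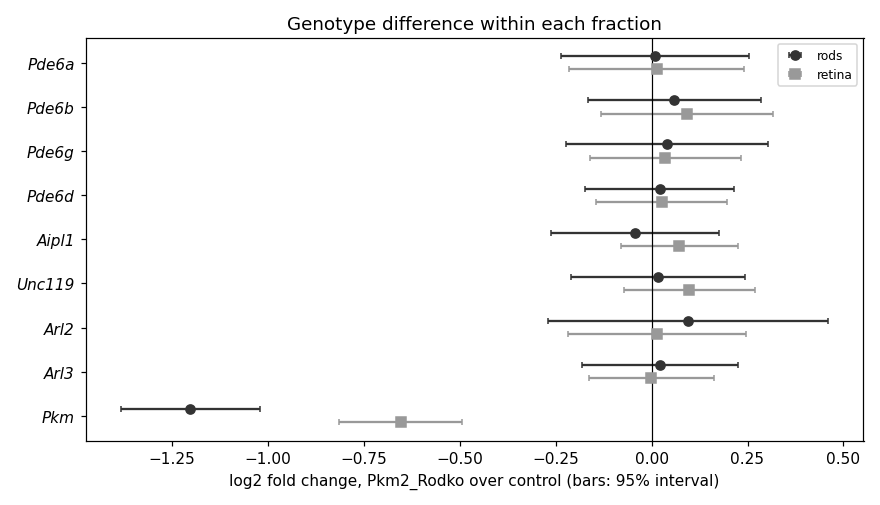
Log2 fold change of Pkm2_Rodko over control for the 8 members and Pkm, with the 95% interval, in rods (dark circles) and retina (grey squares). All 16 member intervals span 0, and Pkm lies at -1.20 and -0.65.

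Over the 12 libraries the levels of members followed Pde6b to different degrees. On log2(TMM-scaled reads + 1) and among 8595 genes with at least 100 reads in every library, the 5 non-members most like Pde6b by Pearson's r were Add1 (0.999), Bbs2 (0.999), Rhot1 (0.998), Gnb5 (0.998) and Lbhd1 (0.998). Pde6a had 0.998, Unc119 0.986, Aipl1 0.986, Pde6d 0.985, Pde6g 0.982, Arl3 0.981 and Arl2 -0.841. These correlations describe mostly the gap between rods and retina, and the points share library and depth. After the mean of each group was subtracted, Pde6a had 0.940 with Pde6b, Arl2 had -0.631, and the 5 other members had between -0.17 and 0.07. The 5 non-members named above had between 0.85 and 0.93 on the same measure.

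Pde6g had 1.18 reads per Pde6b read in control rods replicate 2 and 1.06 in Pkm2_Rodko rods replicate 3, against 1.43 to 1.61 in the other 4 rod libraries. In retina control replicate 2 had 1.21 and Pkm2_Rodko replicate 3 had 1.12, against 1.42 to 1.49 in the others. The low libraries thus carried the same genotype and number in rods and retina. Within a library, short genes (under 1500 bases) and long genes (over 4000 bases) also deviated from their means over both genotypes of the fraction. The difference of their median deviations on the log2 scale was -0.07 in control rods replicate 2 and -0.26 in Pkm2_Rodko rods replicate 3, and lay between 0.01 and 0.22 in the other rod libraries. In retina it was -0.09 in control replicate 2 and -0.07 in Pkm2_Rodko replicate 3, but also -0.06 in Pkm2_Rodko replicate 2, whose ratio of 1.43 was not low, and between 0.07 and 0.10 in the other 3 libraries. Its part in the ratio was not tested.

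**Figure D5:**
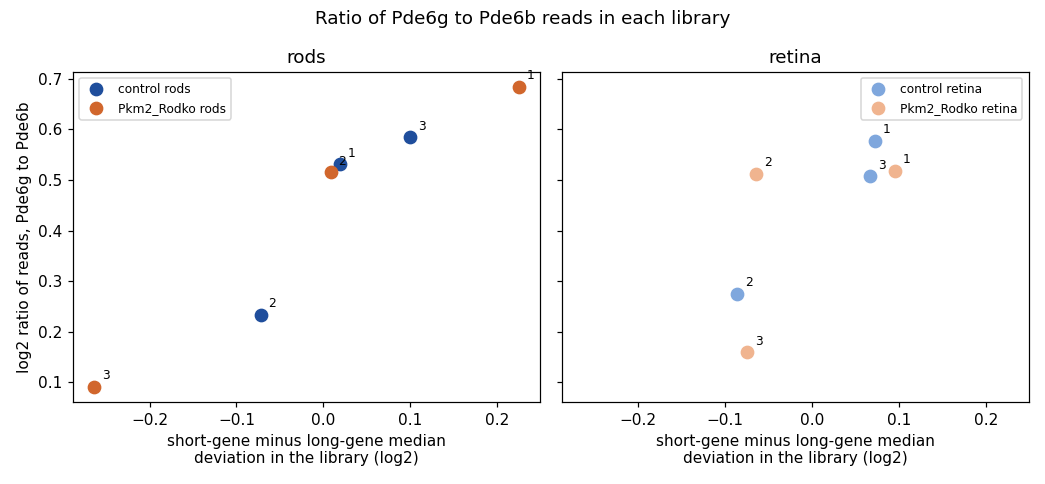
Log2 ratio of Pde6g to Pde6b reads against the short-gene minus long-gene median deviation (log2) in each library, rods at left and retina at right, with replicate numbers. Control replicate 2 and Pkm2_Rodko replicate 3 have the lowest ratios in both fractions.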

How the data were processed

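PolyA RNA was sequenced. The deposited table gives each gene a signal in each library, namely its reads over a size factor of that library, with 1 decimal kept. The submitters' processing notes name CASAVA 1.8.2, HISAT2, DESeq2, edgeR and GRCm39. The counter, annotation and strand setting are not given in the sources used here. The value of 1 read was recovered from the steps of the deposited values, and 99.998% of values were whole reads (99.990% to 100% per library, tolerance 0.05). The size factors match medians of ratios computed within each fraction, so the deposited values of rods and retina have separate scales. The recovered reads were scaled together by TMM for that comparison.

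Genotypes were compared within a fraction by limma 3.58.1 (R 4.3.3) with a variance trend on log2(deposited value + 1), for genes with a mean of at least 1 in 1 genotype. Rods against retina, and the genotype effects against each other, came from 1 limma fit of 4 group means on log2(TMM-scaled reads + 1). Adjustment was by Benjamini-Hochberg at 0.05, and edgeR 4.0.16 and DESeq2 1.42.0 were alternatives run on the recovered reads. Within-library ratios of reads used two-sided exact permutation tests. Python 3.11.15, numpy 2.4.6, pandas 2.3.3 and matplotlib 3.10.9 were used. The fits were tested on simulated data.

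Libraries were grouped by their labels. Library totals ran from 13458890 to 22790074 reads, and precision was limited by 3 libraries a group. Replicates differed by a mean chi-square per gene of 7.16 to 27.1, so none repeated another. Bead and input libraries of the same genotype and number deviated together (r between 0.145 and 0.344 over 6 pairs). The numbers were therefore taken to pair rods with retina in the sign-flip test and the replicate block. The main fit of rods against retina had no term for pairs. Named genes were the 8 members, Pkm, Pde6c and Pde6h, the 2 highest and 2 lowest rod-over-retina genes of each pathway list, and the 5 genes most like Pde6b. Of the pathway genes this rule names, 2 are not reported here. Members and lists were chosen with earlier results of these data known. Lengths came from GENCODE vM21 by identifier and promoters from RefSeq GRCm38.p6, a build other than GRCm39. Genes overlapping a member were found by their GENCODE vM21 coordinates, and their reads were then taken by identifier. Alternatives were other tests, scalings, filters, a pseudocount of 0.1, the replicate block and leaving out each library.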

Additional observations from a re-analysis of the deposited data

How the results depend on the processing

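The 7 members higher in rods and Arl2, lower in rods, kept direction and call in both genotypes under every alternative run, apart from the 3 left-out libraries that end the Arl2 call in Pkm2_Rodko mice (7 to 8 members called over the libraries left out). In rods the 4 genes called by genotype became 8 with the replicate block, 17 in 1 fit of 12 libraries, and 2 to 6 without 1 library. In retina the 1 gene became 0 with the replicate block and with at least 10 reads in every library, and 0 to 4 without 1 library. The genotypes share only a number (r between -0.227 and 0.0713), while the block of bead and input libraries changed no member's call. The rods-minus-retina count went from 0 to 1 with DESeq2. With at least 10 reads in every library the calls of rods against retina went from 15084 to 9526 in controls and from 15100 to 9651 in Pkm2_Rodko mice, where only 12918 genes were tested, and the higher and lower calls became 5912 and 3614, and 6065 and 3586. Deposited values gave 1942 and 13144, and 2076 and 12814. Genotype differences of members were close to 0 and changed sign under some alternatives, without a call. Scaled by total reads, the log2 difference in rods was -0.024 for Pde6a, -0.012 for Pde6d, -0.016 for Unc119 and -0.011 for Arl3. In retina edgeR with TMM gave -0.000128 for Pde6a and -0.00799 for Arl2, 1 fit of 12 libraries gave -0.00365 and -0.00205, and Arl3 had 0.00125 with RLE in edgeR and 0.00110 with DESeq2. For the rods-minus-retina difference, Pde6a had -0.030 (total reads), -0.00938 (RLE), -0.00364 (deposited values), -0.00443 (edgeR) and -9.85e-05 (DESeq2). Pde6g had -0.022 (total reads), -0.00159 (RLE), -0.00935 (edgeR) and -0.000666 (DESeq2). Pde6d had -0.032 (total reads), -0.011 (RLE), -0.00528 (deposited values), -0.020 (edgeR) and -0.011 (DESeq2), and Arl3 had -0.00304 (total reads). The cause was not tested. The genotype difference in rods without 1 library ranged from -0.10 to 0.0740 for Pde6a, from -0.0176 to 0.11 for Pde6b, from -0.0591 to 0.13 for Pde6g, from -0.0381 to 0.0919 for Pde6d, from -0.15 to 0.0306 for Aipl1, from -0.0427 to 0.11 for Unc119, from -0.0741 to 0.22 for Arl2 and from -0.0442 to 0.11 for Arl3. The genotype difference in retina without 1 library ranged from -0.0444 to 0.12 for Pde6a, from -0.0369 to 0.11 for Pde6g, from -0.0343 to 0.0753 for Pde6d, from -0.10 to 0.11 for Arl2 and from -0.0427 to 0.0619 for Arl3. The rods-minus-retina difference without 1 library ranged from -0.10 to 0.0826 for Pde6a, from -0.14 to 0.0450 for Pde6b, from -0.11 to 0.11 for Pde6g, from -0.0800 to 0.0842 for Pde6d, from -0.16 to 0.0326 for Unc119, from -0.0822 to 0.22 for Arl2 and from -0.0589 to 0.13 for Arl3. For Pde6a to Pde6b, the log2 difference of the ratio without 1 library ranged from -0.0408 to 0.0152 for Pkm2_Rodko rods against Pkm2_Rodko retina. For Pde6g to Pde6b, the log2 difference of the ratio without 1 library ranged from -0.0924 to 0.10 for control rods against control retina, from -0.0937 to 0.20 for Pkm2_Rodko rods against Pkm2_Rodko retina, from -0.15 to 0.15 for Pkm2_Rodko rods against control rods and from -0.15 to 0.0621 for Pkm2_Rodko retina against control retina. For Arl3 to Arl2, the log2 difference of the ratio without 1 library ranged from -0.18 to 0.0839 for Pkm2_Rodko rods against control rods and from -0.13 to 0.11 for Pkm2_Rodko retina against control retina. For Unc119 to Unc119b, the log2 difference of the ratio without 1 library ranged from -0.0528 to 0.0725 for Pkm2_Rodko retina against control retina. Arl2, with 295 to 445 reads in rods, is the member that depth limits most.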
